A study of Homo sapiens with 6 samples.

Results

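The NRF2 regulatory circuit was examined as 10 genes of the 26485 listed in the count table. They comprise the CNC transcription factors NFE2L2 (NRF2), NFE2L1 (NRF1) and BACH1, the adaptor KEAP1, the small MAF factors MAFF, MAFG and MAFK, and the target genes SQSTM1, OSGIN1 and NQO1. The members were chosen by gene symbol, with earlier results of these data known. Each symbol had 1 row, and all 10 passed the filter on low counts. The cells were THP1, a human acute monocytic leukemia cell line, kept in RPMI 1640 medium with fetal bovine serum, penicillin and streptomycin. One group received DMSO, the vehicle, for 6 h, and the other received withaferin A (WFA), a steroidal lactone, for 6 h. Each group had 3 libraries, and each replicate number stands for 1 of 3 independent experiments on this single line. The sample labels give the WFA dose as 1 mM. Both the methods of the study and its figure legends for this RNA-seq give 1 μM. No other dose or time was analysed here.

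NRF2 is a transcription factor that switches on genes for detoxification and antioxidant defense. In unstressed cells KEAP1 holds NRF2 and presents it to a CUL3 ubiquitin ligase, so NRF2 is made and destroyed continuously, and cysteines of KEAP1 react with electrophiles, which lets NRF2 escape. NRF2 and NRF1 bind DNA as partners of small MAF proteins at antioxidant response elements (AREs), and BACH1, also bound to small MAF, occupies the same elements as a repressor until heme removes it.

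The letters of the ARE core were sought in the promoter windows that RefSeq gives for these genes (GRCh38.p14, 250 bases before to 50 after a start site). The letters were TGACNNNGC or TGAGNNNGC on either strand. Windows were given for 9 of the 10 genes, 17 windows in all, and MAFK had none. The letters occurred in 6 of the 17 windows (35.3%), against 29.1% of all 35116 windows. Counted by gene, 6 of the 9 genes (66.7%) had a match in at least 1 window, against 33.7% of all 27305 genes, and a gene with more windows has more chances of a match. For each of the 6 genes that had one, the match nearest to the start site is printed in the direction of the gene. Capitals mark the 9 letters.
OSGIN1: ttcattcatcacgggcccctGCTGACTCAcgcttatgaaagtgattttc
NQO1: tcctggagctGCAGCCTCAgcatcctccg
SQSTM1: gggtcagcaaTGAGGGGGCcgggagacct
MAFF: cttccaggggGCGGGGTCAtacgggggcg
KEAP1: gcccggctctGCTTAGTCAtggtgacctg
NFE2L2: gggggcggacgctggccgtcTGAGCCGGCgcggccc
The OSGIN1 stretch lies outside the exons at chr16:83953121-83953169 on the plus strand, and its match, which begins 99 bases before the start site, reads TGAGTCAGC on the opposite strand. It contains TGAGTCA, so it also matches TGANTCA, the letters bound by AP-1 factors, which occurred in 7.71% of all windows. The NQO1 stretch is at chr16:69726661-69726689 on the minus strand, in an annotated exon and 119 bases before the start site of the window. The SQSTM1 stretch is at chr5:179820705-179820733 on the plus strand, 190 bases before a start site inside the gene. It touches an exon, but its match lies outside the exons. That of MAFF is at chr22:38201862-38201890 on the plus strand, with its match in an exon. The KEAP1 stretch is at chr19:10502784-10502812 on the minus strand, with its match in an exon, and that window held 3 matches. The NFE2L2 stretch is at chr2:177264132-177264167 on the minus strand, outside the exons and in a window with 2 matches. In the windows of NFE2L1, BACH1 and MAFG the 9 letters did not occur. A match describes letters in a short window and is not evidence of binding. AREs outside these windows were not sought, so a printed match need not be the element through which a gene is controlled.

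Total counts ranged from 11006035 to 13872810 per library. All 12 monocytic markers examined, including CD14, CD33, CD68 and SPI1, had more than 10 counts in every library. With WFA 1 of the 12 was higher and 5 were lower, against 25.8% and 24.7% of all genes tested. In bulk RNA, fewer cells of a type and less RNA per cell cannot be told apart. Of 9 markers of other cell types, 5 never exceeded 3 counts. The summed level of all 9 was 355 to 402 CPM with DMSO and 316 to 336 with WFA, nearly all of it from PECAM1, which monocytes also express. With WFA 2 of the 9 were higher and 1 was lower, against the same 25.8% and 24.7%. COL1A1, a fibroblast marker, had 3 to 10 counts with DMSO and 106 to 135 with WFA. The part of these shifts in the results was not tested.

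With WFA, 9 of the 10 genes were higher and 0 were lower by edgeR's quasi-likelihood test (Benjamini-Hochberg adjusted p-value below 0.05). No member was lower at an unadjusted p-value under 0.05 either, with edgeR, DESeq2 or limma voom. Over all 12854 genes tested, 25.8% were higher and 24.7% were lower. Because the 10 genes were chosen with earlier results of these data known, setting them beside these shares is a description and not a test. For the same 9 genes every WFA library lay above every DMSO library, a pattern found in 29.6% of the genes tested, with 28.5% the other way. Of the 9 genes, 5 rose by over 2-fold, as did 8.11% of all genes tested, and 4 rose by less. The median log2 fold change was 0.93 over the 10 genes and 0.02 over all genes tested. The largest rise was that of OSGIN1, and NFE2L2 was the gene that did not pass the test. For 3 libraries against 3 the smallest p-value of an exact permutation test is 0.1, and each of the 9 genes reached it. That test did not keep same-numbered libraries together as pairs.

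**Figure D1:**
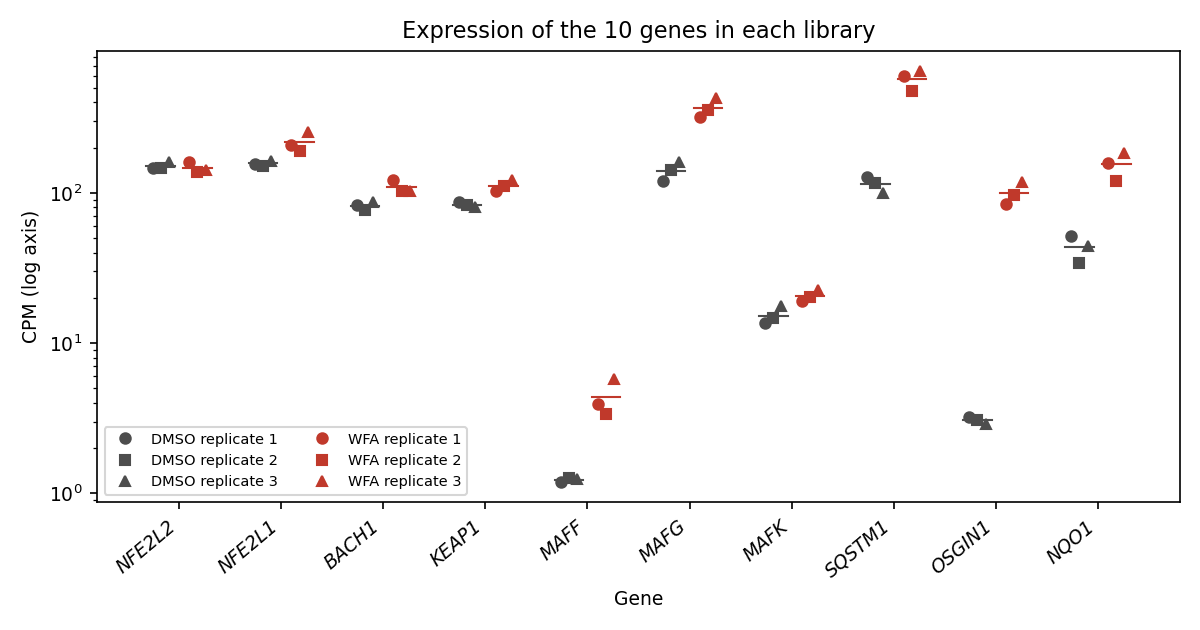
Expression in CPM (log axis) of each of the 10 genes in the 3 DMSO libraries (grey) and the 3 WFA libraries (red). Symbols give the replicate number and the short lines are group means, and the groups overlap for NFE2L2 only.

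OSGIN1 and SQSTM1 had the largest log2 fold changes of the 10, and NQO1 was close to MAFF. OSGIN1 (chromosome 16, 83948282 to 83966332 in GRCh38) encodes an oxidative stress-induced growth inhibitor. It had 3.24, 3.08 and 2.92 CPM (counts relative to the TMM-scaled total of the library) in DMSO replicates 1, 2 and 3, and 84.6, 97.2 and 118 CPM in the WFA replicates. The DMSO level rested on 35 to 46 counts per library and the WFA level on 1036 to 1269. Its log2 fold change was 5.01 ± 0.15 (SE, edgeR adjusted p = 7.87e-12), or 32.3-fold with a 95% interval of 25.7 to 40.6, which placed it at rank 18 of the 12854 genes. SQSTM1 (chromosome 5, 179806398 to 179838078) encodes p62, a receptor for selective autophagy that also binds KEAP1. It had 128, 117 and 99.9 CPM with DMSO and 597, 476 and 643 CPM with WFA, with a log2 fold change of 2.32 ± 0.12 (SE, edgeR adjusted p = 2.01e-09). That is 4.98-fold (95% interval 4.15 to 5.98), and 98.7% of the genes tested had a smaller log2 fold change. NQO1 (chromosome 16, 69706996 to 69726951) encodes a quinone reductase and is a classical NRF2 target. Its level was 51.6, 34.1 and 44.4 CPM with DMSO and 159, 120 and 185 CPM with WFA. Replicate 2 was the lowest in both groups, and the coefficient of variation was 20.3% with DMSO and 21.1% with WFA. The log2 fold change of NQO1 was 1.83 ± 0.16 (SE, edgeR adjusted p = 2.2e-07), or 3.56-fold (95% interval 2.83 to 4.48).

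OSGIN1 and NQO1 were then compared within each library. The log2 ratio of OSGIN1 to NQO1 counts within a library, which does not depend on scaling between libraries, was -4.00, -3.47 and -3.93 with DMSO. It was -0.91, -0.31 and -0.65 with WFA, so that the groups did not overlap and the mean difference was 3.18 (exact permutation p = 0.1, adjusted p = 0.114 over 8 ratios). Reads of overlapping transcripts could not be separated by strand, because the TruSeq RNA v2 kit does not mark it. In GENCODE 29 MRNIP shares 1582 bases of exon with SQSTM1 on the opposite strand. It had a mean of 64.3 counts with DMSO and 69.0 with WFA, far under the counts of SQSTM1. AC009119.2 shares 481 bases of exon with OSGIN1 on the same strand, and an antisense transcript covers 575 bases of the exons of NQO1, and neither was analysed here.

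NFE2L2, on chromosome 2 (177227595 to 177392697 in GRCh38), did not change detectably at the level of its transcript. It had 147, 147 and 160 CPM with DMSO and 159, 137 and 142 CPM with WFA. The groups overlapped, and the WFA library of replicate 1 was above its DMSO partner while those of replicates 2 and 3 were below theirs. The log2 fold change was -0.05 ± 0.09 (SE, edgeR adjusted p = 0.649), and its 95% interval ran from -0.24 to 0.14, that is from 0.847-fold to 1.10-fold. In GENCODE 29 AC019080.1 shares 1054 bases of exon with NFE2L2 on the same strand and was not analysed here. AGPS, which shares 54 bases of exon with NFE2L2 on the opposite strand, had a log2 fold change of -0.61. Protein was not measured in these libraries.

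NFE2L1 (chromosome 17, 48048329 to 48061487) encodes NRF1, which is made in the endoplasmic reticulum and activates proteasome genes. It had 156, 152 and 163 CPM with DMSO and 209, 190 and 252 CPM with WFA, a log2 fold change of 0.47 ± 0.10 (SE, edgeR adjusted p = 0.00139). BACH1 (chromosome 21, 29194071 to 29630751) had 82.7, 76.7 and 87.0 CPM with DMSO and 122, 103 and 102 CPM with WFA, a log2 fold change of 0.41 ± 0.09 (SE, edgeR adjusted p = 0.00212). For both genes the WFA libraries lay above the DMSO libraries, and each change was under 2-fold over its whole 95% interval, 1.19-fold to 1.61-fold for NFE2L1 and 1.15-fold to 1.53-fold for BACH1. Of the genes tested, 79.1% had a smaller log2 fold change than NFE2L1 and 76.3% a smaller one than BACH1.

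KEAP1, at 10486120 to 10503741 on chromosome 19, was also higher with WFA. Its level was 87.2, 83.3 and 79.9 CPM with DMSO and 103, 111 and 121 CPM with WFA. The log2 fold change was 0.42 ± 0.09 (SE, edgeR adjusted p = 0.00105), or 1.34-fold (95% interval 1.17 to 1.52). The difference within a pair of same-numbered libraries was 0.24, 0.41 and 0.60 on the log2 scale for replicates 1, 2 and 3.

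**Figure D2:**
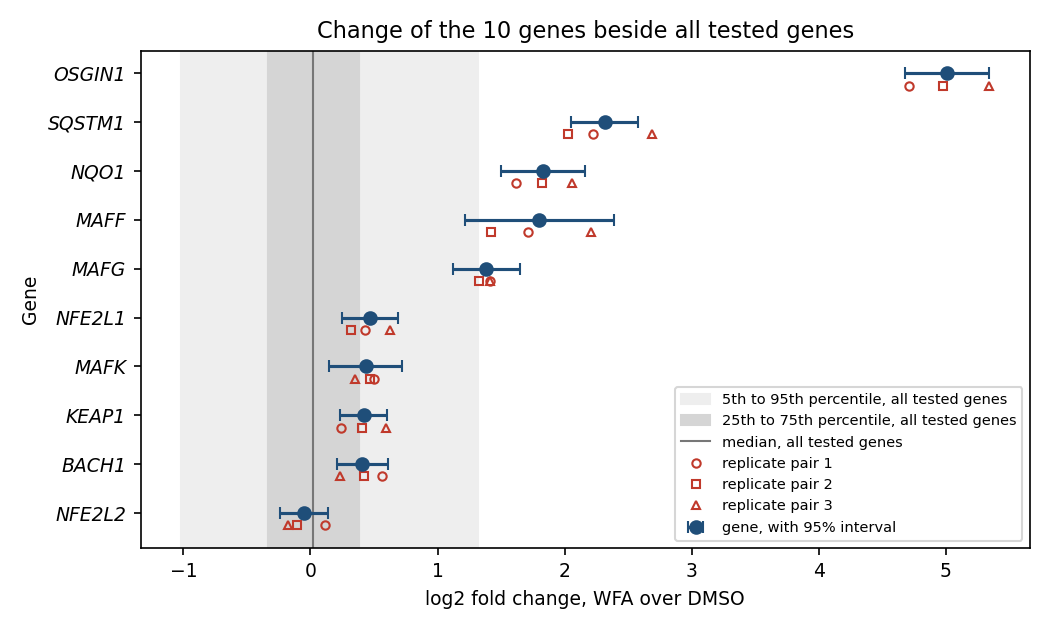
Points show the log2 fold change (WFA over DMSO) of each gene with its 95% interval from edgeR (blue), and the difference within each pair of same-numbered libraries (red, open symbols). The grey bands are percentiles of all 12854 genes tested, and 5 genes lie beyond the 95th percentile of 1.32.

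NFE2L2 was next set against its inhibitors and its relatives within each library. The log2 ratio of NFE2L2 to KEAP1 counts was 0.76, 0.82 and 1.00 with DMSO and 0.63, 0.31 and 0.23 with WFA, a mean difference of -0.47. For NFE2L2 to BACH1 it was 0.83, 0.94 and 0.88 with DMSO and 0.39, 0.42 and 0.47 with WFA, a mean difference of -0.46. The log2 ratio of NFE2L2 to NFE2L1 had a mean of -0.05 with DMSO and -0.57 with WFA, a difference of -0.51. In each case the groups did not overlap, and the exact permutation test gave p = 0.1, with an adjusted p = 0.114 over the 8 ratios. SQSTM1, whose product competes with NRF2 for KEAP1, had a log2 ratio to KEAP1 of 0.55, 0.48 and 0.32 with DMSO and 2.53, 2.10 and 2.41 with WFA, again without overlap (exact permutation p = 0.1, adjusted p = 0.114). These are ratios of counts in a library, and changes in them are unequal changes of transcripts, not of proteins.

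**Figure D3:**
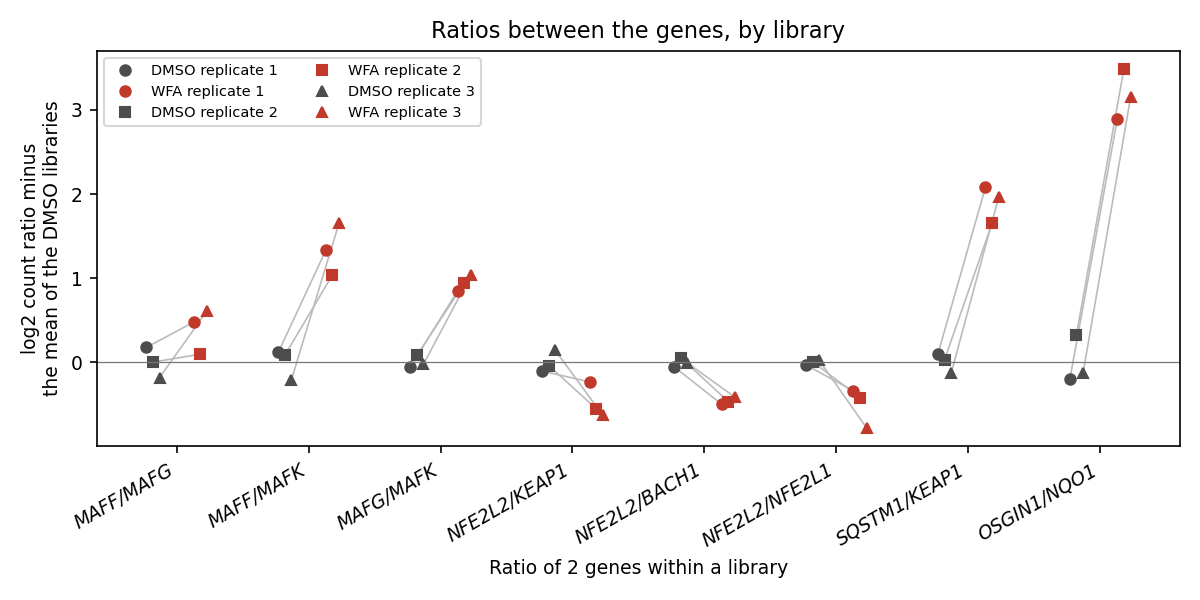
The log2 ratio of the counts of 2 genes within each library, minus the mean of the 3 DMSO libraries. Grey lines join same-numbered libraries, and MAFF/MAFG is the ratio whose groups overlap.

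The small MAF factors lack a domain that activates transcription and serve as partners of both the activators and BACH1. MAFG (chromosome 17, 81918270 to 81927714) had the highest level of them per kb of exon. It had 120, 142 and 160 CPM with DMSO and 318, 357 and 427 CPM with WFA, with a log2 fold change of 1.38 ± 0.12 (SE, edgeR adjusted p = 3.38e-07). That is 2.61-fold (95% interval 2.18 to 3.13), and the difference within the pairs was 1.41, 1.33 and 1.41. MAFF (chromosome 22, 38200767 to 38216511) rose 3.48-fold (95% interval 2.32 to 5.23), from 1.20, 1.26 and 1.25 CPM to 3.92, 3.38 and 5.77 CPM. Its log2 fold change was 1.80 ± 0.28 (SE, edgeR adjusted p = 7e-05), but it rested on few counts, with 15 to 17 counts in the DMSO libraries and 42 to 62 in the WFA libraries.
MAFK (chromosome 7, 1530714 to 1543043) rose least of the 3, from 13.5, 14.6 and 17.7 CPM to 19.1, 20.2 and 22.5 CPM, a log2 fold change of 0.44 ± 0.13 (SE, edgeR adjusted p = 0.0141). DMSO replicate 3 and WFA replicate 1 lay close together. This call did not hold without DMSO replicate 1 (edgeR adjusted p = 0.0731), DMSO replicate 2 (0.056) or WFA replicate 3 (0.0582). TMEM184A shares 809 bases of exon with MAFK on the opposite strand and had 0 to 5 counts in the 6 libraries.

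The 3 small MAF genes were compared with each other in the same way. The log2 ratio of MAFG to MAFK counts went from 3.15, 3.29 and 3.18 with DMSO to 4.06, 4.14 and 4.24 with WFA, a mean difference of 0.94. The ratio of MAFF to MAFK differed by 1.34. Neither ratio overlapped between the groups (exact permutation p = 0.1, adjusted p = 0.114 over 8 ratios). For MAFF to MAFG the groups overlapped, with a mean difference of 0.40 (exact permutation p = 0.2).

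Levels were compared between genes as CPM per kb of exon, with the merged exons of each gene in GENCODE 29 as its length. Merged exons include rarely used ones, so both the values and their order depend on the lengths used. Other lengths were not tried. With DMSO, MAFG (26.9 ± 3.89, SD, n = 3), NFE2L1 (26.9 ± 0.984) and NFE2L2 (25.3 ± 1.23) were highest, and neighbours in this order overlapped between libraries. KEAP1 followed at 22.2 ± 0.965 and lay apart from NFE2L2 and from SQSTM1. SQSTM1 (15.0 ± 1.84), NQO1 (13.3 ± 2.71) and BACH1 (10.6 ± 0.671) came next, and neighbours among these overlapped too. MAFK had 3.42 ± 0.483, OSGIN1 0.889 ± 0.0462 and MAFF 0.220 ± 0.00637, each apart from the next.
With WFA, SQSTM1 (74.7 ± 11.3) and MAFG (70.4 ± 10.6) were highest and overlapped. NQO1 had 47.6 ± 10.0 and overlapped with NFE2L1 at 37.3 ± 5.50. KEAP1 (29.7 ± 2.36), OSGIN1 (28.9 ± 4.88) and NFE2L2 (24.4 ± 1.97) formed a run of overlapping neighbours, so OSGIN1 moved from the ninth to the sixth place and NFE2L2 from the third to the seventh. BACH1 (14.1 ± 1.46), MAFK (4.62 ± 0.390) and MAFF (0.776 ± 0.223) were lowest, each apart from the next.

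Summed per kb, the 3 small MAF transcripts went from 30.6 ± 4.36 to 75.8 ± 11.1 CPM per kb (SD, n = 3 each). This sum, like the shares and the ratio given below, also depends on the exon lengths used. MAFG made up 88.1% ± 0.521 of that sum with DMSO and 92.8% ± 0.358 with WFA, whereas the share of MAFK went from 11.2% ± 0.496 to 6.14% ± 0.379. The sum of NFE2L2, NFE2L1 and BACH1 moved less, from 62.9 ± 2.80 to 75.8 ± 6.16 CPM per kb. The ratio of the small MAF sum to that sum was 0.421, 0.508 and 0.528 with DMSO and 0.841, 1.07 and 1.09 with WFA. All of these differed without overlap between the groups (exact permutation p = 0.1), whereas the share of BACH1 among the 3 CNC factors overlapped (exact permutation p = 0.3).

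**Figure D4:**
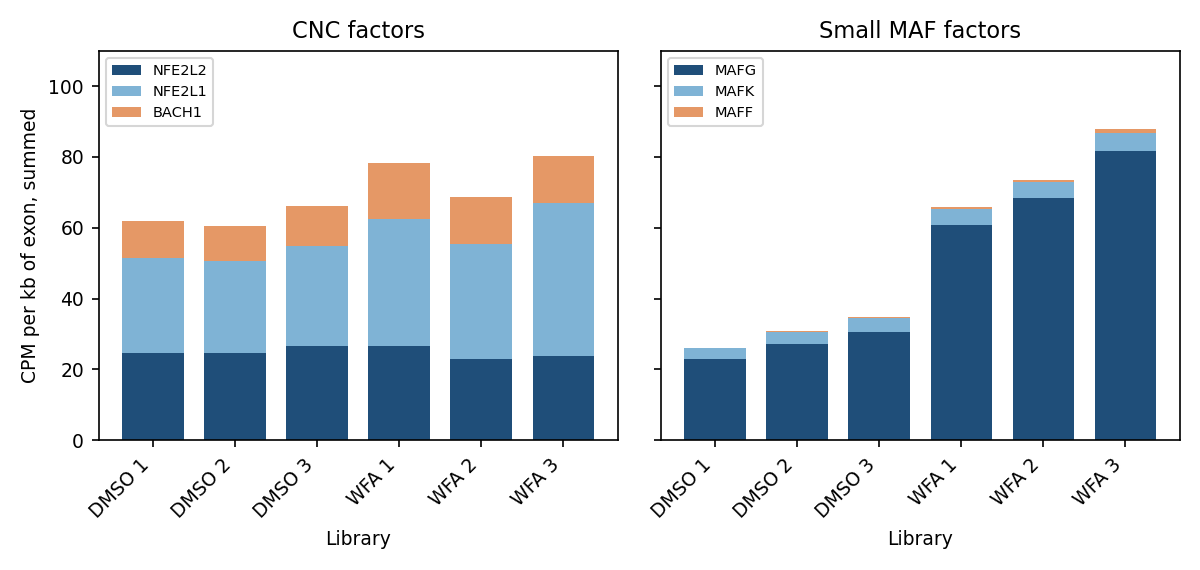
Levels in CPM per kb of exon, stacked for the 3 CNC factors (left) and the 3 small MAF factors (right) in each of the 6 libraries. The small MAF sum is 26.1 to 34.8 with DMSO and 65.9 to 87.8 with WFA, and MAFG makes up most of each bar.

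The 10 genes also differed in how the replicates varied. WFA replicate 3 was the highest WFA library for 8 of them, which was so for 32.4% of the genes tested. The exceptions were NFE2L2 and BACH1, for which WFA replicate 1 was highest. The difference within the pair of replicate 3 was the largest of the 3 pairs for 7 of the 10 genes, against 35.9% of the genes tested.

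Other genes of the pathway were examined as lists, which were also chosen with earlier results of these data known. A list of 33 further NRF2 targets had 28 members above the filter, with 24 higher (85.7%) and 0 lower in edgeR's test. Over all genes tested 25.8% were higher and 24.7% lower. The median log2 fold change of the list was 1.55, against 0.02 over all genes tested. HMOX1, which degrades heme and is repressed by BACH1, went from 9.27 ± 0.649 to 3378 ± 659 CPM (SD, n = 3 each). GCLM, a subunit of the first enzyme of glutathione synthesis, and SLC48A1, a heme transporter, had log2 fold changes of 3.43 and 3.18 (edgeR adjusted p = 2.97e-11 and 1.91e-10). SRXN1, which repairs peroxiredoxins, rose from 28.6 to 229 CPM on average (edgeR adjusted p = 4.33e-12). GCLC, the catalytic partner of GCLM, had a log2 fold change of -0.01, ABCC2 of -0.001, CBR3 of 0.14 and ABCC4 of -0.27, and none of them passed the test. At an unadjusted p-value under 0.05 edgeR, DESeq2 and limma voom each counted 1 as lower, and ABCC4 was called lower with the replicate block, with scaling by total counts, with no filter, and also without DMSO replicate 2 or without WFA replicate 1 (1 lower in each). AKR1B10, AKR1C1, AKR1C2, AKR1C3 and GPX2, with 15 counts or fewer in every library, were not tested.

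Among 7 further CNC and large MAF factors 5 were tested, and 2 were higher and 2 lower (40% each, against 25.8% and 24.7% of all genes tested). NFE2L3, a CNC factor, fell from 10.8 ± 1.02 to 2.55 ± 0.438 CPM (SD, n = 3 each). The log2 fold change was -2.07 ± 0.19 (SE, edgeR adjusted p = 5.41e-07). NFE2, the CNC factor of the megakaryocyte and erythroid lineages, fell from 15.3 ± 1.82 to 4.66 ± 0.833 CPM, with a log2 fold change of -1.71 ± 0.17 (SE, edgeR adjusted p = 1.2e-06). BACH2 rose from 0.839 ± 0.189 to 1.65 ± 0.628 CPM (edgeR adjusted p = 0.041). Without DMSO replicate 2, DMSO replicate 3, WFA replicate 1 or WFA replicate 3 this call was lost. It rested on 9 to 15 counts in the DMSO libraries and 12 to 27 in the WFA libraries. With DESeq2, scaling by total counts or limma voom only 1 gene of the list was higher.

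Of 20 genes that control NRF2 protein, 7 were higher and 7 lower (35% each, against 25.8% and 24.7% of all genes tested). Their median log2 fold change was -0.04. CUL3, the scaffold of the KEAP1 ligase, and CAND1, its exchange factor, fell, with log2 fold changes of -0.37 and -0.44 (edgeR adjusted p = 0.00264 and 0.00047). CUL1, the scaffold of the ligase that acts on NRF2 phosphorylated by GSK3, fell by 1.05 on the log2 scale (edgeR adjusted p = 1.12e-07). In the same arm the substrate receptor BTRC, the linker SKP1 and the kinase GSK3B rose, with log2 fold changes of 0.51, 0.26 and 0.28 (edgeR adjusted p = 0.00611, 0.0222 and 0.0104). PALB2 and AMER1, both of which bind KEAP1, fell as well, by 0.97 and 1.23 on the log2 scale (edgeR adjusted p = 4.01e-06 and 4.51e-06). PGAM5 and TRIM21 fell by 0.45 and 0.43. CDKN1A and SESN2, whose products favor NRF2, rose, with log2 fold changes of 2.01 and 1.92 (edgeR adjusted p = 5.99e-07 and 1.18e-06). SESN1 rose by 0.40 on the log2 scale. The ligase SYVN1, which is not among the genes said to favor NRF2, rose by 0.82.

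Of 10 genes that process NRF1 protein, 4 were higher and 2 lower (40% and 20%, against 25.8% and 24.7% of all genes tested). Their median log2 fold change was -0.01. SYVN1, the ligase HRD1, NPLOC4 and VCP rose, with log2 fold changes of 0.82, 0.67 and 0.45 (edgeR adjusted p = 5.93e-06, 5.83e-05 and 0.000965). NGLY1, which removes the sugars of NRF1, and OGT fell by 0.35 and 0.32 on the log2 scale (edgeR adjusted p = 0.00385 and 0.0228). With the replicate block 3 were lower, and without DMSO replicate 2, DMSO replicate 3 or WFA replicate 1 the number was 1. DDI2, the protease that releases active NRF1, had a log2 fold change of -0.14 and did not pass the test.
Of 32 proteasome subunit genes, which NRF1 activates, 31 were tested, and 7 were higher and 1 lower, with a median log2 fold change of 0.09. The share higher was 22.6%, against 25.8% of all genes tested, so it was no more than the background. The share lower was 3.23%, against 24.7% of all genes tested, so it was under the background. ADRM1, PSMD11, PSMC1 and PSMD8 rose, with log2 fold changes of 0.49, 0.45, 0.32 and 0.29, and PSMD12 fell by 0.29 on the log2 scale (edgeR adjusted p = 0.0127). With the replicate block 10 were higher and 3 lower, and with scaling by total counts 4 were higher and 4 lower. Without DMSO replicate 2, DMSO replicate 3 or WFA replicate 1 the number higher was 4, and without DMSO replicate 3 or WFA replicate 2 the number lower was 0.

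SQSTM1 was set beside 11 other selective autophagy receptors and partners, of which 9 were higher and 0 lower (0 at an unadjusted p-value under 0.05, also with DESeq2 and limma voom). The share higher was 81.8%, against 25.8% of all genes tested, and the median log2 fold change was 0.31. GABARAPL1 and MAP1LC3B, ubiquitin-like proteins that p62 binds on the autophagosome membrane, rose from 3.36 ± 0.365 to 20.5 ± 2.11 CPM and from 55.9 ± 7.16 to 144 ± 12.2 CPM (SD, n = 3 each). Their log2 fold changes were 2.61 and 1.37 (edgeR adjusted p = 8.26e-09 and 7.06e-08). GABARAP and TBK1, the kinase that phosphorylates these receptors, rose by less, with log2 fold changes of 0.49 and 0.42 (edgeR adjusted p = 0.000298 and 0.00116). With scaling by total counts, and without DMSO replicate 1 or DMSO replicate 3, 5 were higher.

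**Figure D5:**
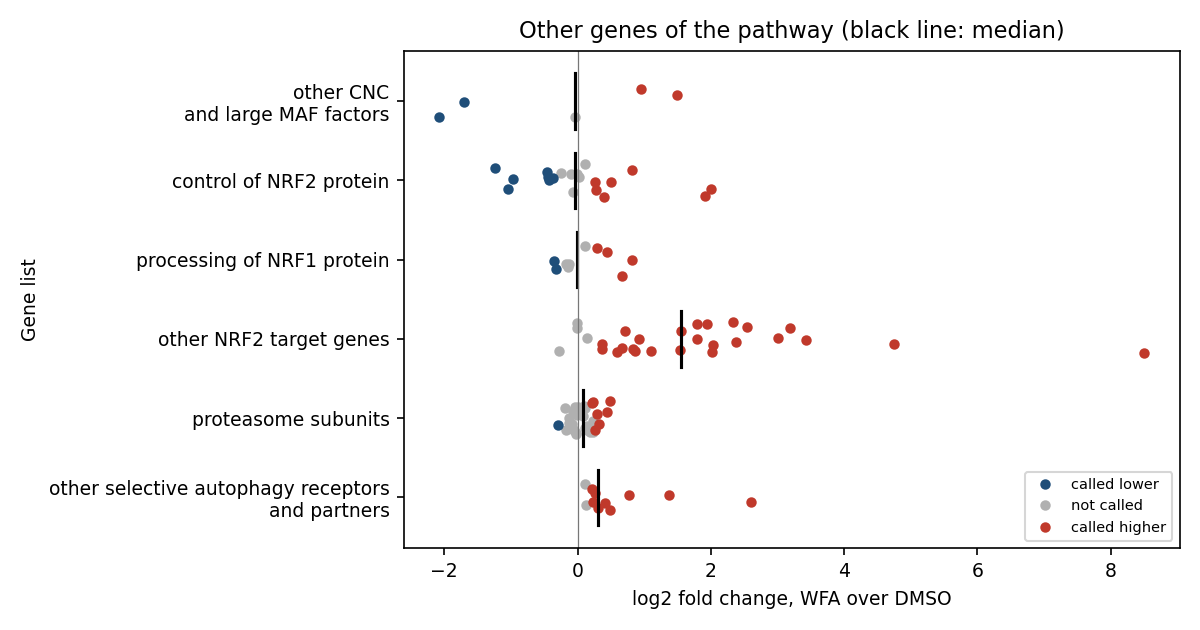
Each point is the log2 fold change (WFA over DMSO) of 1 tested gene of the 6 lists, with genes called higher in red, called lower in blue and not called in grey, and the median of each list as a black line. The medians are 1.55 for the further NRF2 targets and between -0.04 and 0.31 for the other lists.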

How the data were processed

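RNA-seq was performed on 6 libraries of THP1 cells, 3 with DMSO and 3 with WFA. Deposited by the authors were raw counts for each gene in each library. The submitters' processing notes name bcl2fastq 2.19, Trimmomatic, Bowtie2, Picard, featureCounts and DESeq2, with build hg38. The annotation and settings are not given in the sources used here. The deposited table also holds a score for each library (rounded counts after size-factor scaling) and the authors' own comparison with its fold changes and p-values. Neither was used. CPM values are counts relative to the TMM-scaled library total.

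Counts were compared with edgeR 4.0.16 in R 4.3.3 (TMM, filterByExpr with a minimum count of 10, quasi-likelihood test), with Benjamini-Hochberg adjustment over 12854 genes and a threshold of 0.05. Standard errors are the log2 fold change divided by the square root of F, and 95% intervals use the t distribution of the fit. Alternatives used DESeq2 1.42.0, limma 3.58.1 (voom), other scalings and filters, a robust fit, the replicate block and leaving out each library. The fit was tested on simulated data, where 95.9% of the changed genes that passed the filter were recovered among 12551 genes. In that simulation only 200 genes were changed, every gene had the same dispersion and there was no replicate effect. Changes as small as those of NFE2L1, BACH1, KEAP1 and MAFK were not simulated, so their recovery is not known. Ratios, shares and sums were compared by exact two-sided permutation tests with scipy 1.17.1, without regard to the replicate number.

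Labels of same-numbered DMSO and WFA libraries share an ending in their descriptions. Their deviations from the group means correlated across genes at 0.217, 0.333 and 0.245, and those of differently numbered libraries at -0.256 to 0.00369. Chi-square values per gene between libraries of a group were 5.92 to 10.9, so no library was a copy of another. P-values and intervals of edgeR rest on the spread between these libraries. The spread of each gene is moderated toward that of the other genes tested, with median prior degrees of freedom of 10.8. The main fit did not use the replicate number.

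The 10 members and the lists were chosen with earlier results of these data known. All members were named, and of each list up to 4 called genes with the smallest p-values and up to 2 called in the minor direction. Since the list of genes that control NRF2 protein split evenly, all its called genes were named. GCLC, ABCC2, CBR3, ABCC4 and DDI2 were named beyond that rule after their values were seen, and 1 gene that the rule names is not reported here. UFD1 was found under its older symbol UFD1L, and the other list symbols matched directly. Coordinates and exon lengths are those of GENCODE 29 on GRCh38, and promoter sequences are from RefSeq.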

Additional observations from a re-analysis of the deposited data

How the results depend on the processing

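Calls of the 10 genes rarely depended on the processing. NFE2L2 passed the test under none of the alternatives and its log2 fold change lay between -0.14 and -0.01. OSGIN1, SQSTM1, NQO1, MAFG, NFE2L1, BACH1 and KEAP1 passed it under every alternative, as did MAFF except under the filter of 5 CPM in 3 libraries, where it was not tested and 8 genes were higher. The log2 fold change of MAFK was 0.35 to 0.55 with each library left out, without its call in 3 of those 6 fits. The replicate block changed no call among the 10 genes (MAFK 0.44, edgeR adjusted p = 0.000821), but in that fit the prior degrees of freedom were infinite, which makes p-values small. Total counts in place of TMM moved the median of all genes by -0.08, and the rises of NFE2L1, BACH1, KEAP1 and MAFK were then 0.38, 0.32, 0.33 and 0.35.
Among the lists, the number of CNC and large MAF factors higher was 1 with DESeq2, total counts, limma voom and the filter of 5 CPM, and 1 to 2 with a library left out. NRF2 targets lower numbered 1 with the block, total counts and no filter, and 0 to 1 with a library left out. Proteasome genes lower numbered 3 with the block and 4 with total counts, and 0 to 1 with a library left out, and those higher 10 with the block, 4 with total counts and 4 to 8 with a library left out. Autophagy genes higher numbered 5 with total counts and 5 to 8 with a library left out, and NRF1 processing genes lower 3 with the block and 1 to 2 with a library left out. Genes that control NRF2 protein numbered 5 higher with total counts, and 8 lower with the block, DESeq2, total counts and no filter. The cause was not tested. Low counts limit the precision for MAFF and BACH2, as for other genes near the filter.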

Other observations

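Genes that share a name with members were looked up after the results were seen. OSGIN2 had 89.3, 76.6 and 83.8 CPM with DMSO and 142, 127 and 128 CPM with WFA, a log2 fold change of 0.67 ± 0.09 (SE, edgeR adjusted p = 1.97e-05), whereas that of OSGIN1 was 5.01. MAFG-AS1, the transcript listed as antisense to MAFG, had 27 to 48 counts with DMSO and 23 to 27 with WFA, with a log2 fold change of -0.34 ± 0.26 (SE, edgeR adjusted p = 0.295), and whether it differed from MAFG was not tested.
In the promoter window of MAFG the letters TTCNNGAA, an arrangement of units bound by heat shock factor, began 31 bases before the start site. Either TTCNNGAA or GAANNTTC occurred in 13.5% of all windows and in 1 of the 17 windows of these genes. In a window of BACH1 the AP-1 letters TGANTCA began 48 bases before the start site.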
